A study of Macaca mulatta with 16 samples.

Results

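The cluster of miR-183, miR-96 and miR-182 was followed in the developing retina of the rhesus monkey (Macaca mulatta) through the rows of the miRNA table named miR-182, miR-183 or miR-96 once the species prefix and the arm were removed. These rows were miR-182, miR-183-5p and miR-96, 3 of the 339 miRNAs listed, and all 3 were abundant enough to be tested. Each was measured in 6 small RNA libraries, 3 from the temporal retina, which holds the presumptive fovea, and 3 from the nasal retina at the mirror position across the optic nerve head. All punches came from untreated fetuses of normal pregnancies at 50 days of gestation, and no group carried a transgene or a mutation. For mRNA, 1 temporal and 1 nasal library each of 90 and 150 days were also read. The punches were larger than the foveal anlage at this age, the temporal ones therefore hold tissue around it, and every punch was bulk tissue holding all retinal cell types. The labels number the samples within a region without naming the animal behind each, so p-values measure the spread between these samples.

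The 3 miRNAs are cut from neighbouring hairpins of a common primary transcript. miR-96 and miR-182 have closely related seeds, the 5′ stretch that pairs with a target mRNA, and miR-183 has a seed of its own. The cluster is a marker of sensory cells: it is abundant in photoreceptors, inner ear hair cells and olfactory neurons, a mutated miR-96 seed causes deafness in mice and people, and mice without the cluster have defective photoreceptors. In mouse cones, miR-182 and miR-183 are needed to keep the outer segments, and in the mouse retina the cluster is raised by light and decays quickly in the dark. In the current RefSeq annotation of the rhesus genome (assembly T2T-MMU8v2.0, which is not the build of the files) the 3 hairpins follow each other with no other gene between them, and the nearest named protein-coding genes are NRF1 beyond miR-182 and UBE2H beyond miR-183.

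The deposited values are TPM, a miRNA's reads relative to the library total, rounded to whole numbers. The listed miRNAs summed to between 309924 and 353553 TPM in the temporal libraries and between 178383 and 358430 TPM in the nasal libraries, lowest in nasal replicate 1, and the read counts behind these values are unknown. Without rescaling, the median miRNA was therefore 0.52 higher on the log2 scale in temporal than in nasal libraries. After division by median ratios, the scale used for the tests, this median was 0.01. Differences below are log2 of the rescaled value plus 1, temporal minus nasal, unless deposited TPM is named.

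miR-182, of the pair that mouse cones depend on, stood at 894, 364 and 1161 TPM in temporal replicates 1, 2 and 3, against 93, 262 and 118 TPM in nasal replicates 1, 2 and 3. The regions did not overlap, although temporal replicate 2 lay far below the other temporal samples and nasal replicate 2 above the other nasal samples. The means were 806 ± 406 TPM temporal and 158 ± 91.2 TPM nasal (SD, n = 3 each), a 5.11-fold difference of deposited values, which fell to 3.88-fold on the rescaled values. Among all 283 miRNAs tested, 41.7% also had all temporal samples above all nasal samples in deposited TPM and 3.89% had them all below, and 22.3% and 21.2% did so after rescaling, where miR-182 still did not overlap (267 against 235 for the closest samples). In the limma fit over all miRNAs, miR-182 was higher in temporal retina by 1.79 ± 0.46 (standard error, adjusted p = 0.0248), where 13.4% of tested miRNAs were called higher and 14.5% lower. The call was lost without temporal replicate 1 (adjusted p = 0.113), temporal replicate 3 (adjusted p = 0.0832) or nasal replicate 3 (adjusted p = 0.0777), with differences of 1.57, 1.43 and 1.71.

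miR-96, the deafness gene of the cluster and its scarcest product here, had 64, 24 and 89 TPM in the temporal replicates, against 7, 20 and 7 TPM in the nasal replicates. It followed miR-182 sample by sample, low in temporal replicate 2 and high in nasal replicate 2. Its means were 59.0 ± 32.8 TPM temporal and 11.3 ± 7.51 TPM nasal (SD, n = 3 each), 5.21-fold apart, and rounding to whole TPM alone leaves this fold between 4.94 and 5.49. After rescaling the regions overlapped, with temporal replicate 2 at 17.6 and nasal replicate 2 at 17.9. The difference was 1.74 ± 0.51 (standard error, adjusted p = 0.0355). With the replicate number as a block, the adjusted p was 0.0552, and without temporal replicate 1, temporal replicate 3 or nasal replicate 3 it was 0.157, 0.122 and 0.114.

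miR-183-5p, the member with its own seed, had 731, 306 and 975 TPM in the temporal replicates, against 125, 332 and 153 TPM in the nasal replicates. Here the regions overlapped, because nasal replicate 2 exceeded temporal replicate 2. The means were 671 ± 339 TPM temporal and 203 ± 112 TPM nasal (SD, n = 3 each), 3.30-fold apart in deposited values and 2.49-fold after rescaling. The difference of 1.15 ± 0.45 (standard error) did not pass the threshold (adjusted p = 0.0899; 95% interval 0.12 to 2.18). It passed in the deposited values without rescaling, at 1.70 with an adjusted p of 0.0225, and without temporal replicate 2, at 1.71 with an adjusted p of 0.00591.

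**Figure D1:**
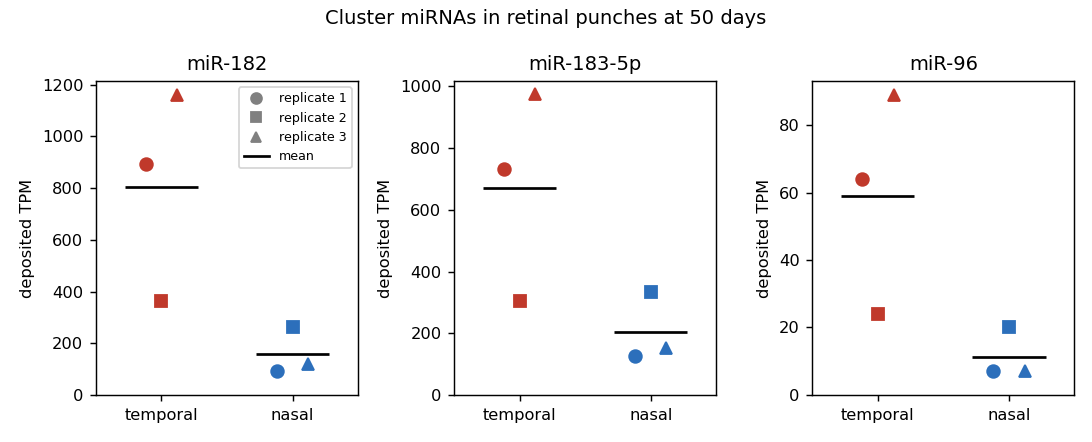
Deposited TPM (vertical axis, from 0) of miR-182, miR-183-5p and miR-96 in the 3 temporal (left, red) and 3 nasal (right, blue) libraries, with a symbol for each replicate number and a bar at the mean. Temporal replicate 2 (364, 306 and 24 TPM) sits close to nasal replicate 2 (262, 332 and 20 TPM) in each panel, while the other samples of the regions lie far apart.

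By size, these were among the leading differences toward the temporal side at this age. Toward the nasal side larger ones were found, such as those of miR-184 (-2.47, not called) and miR-342-5p (-1.91, called). On the log2 scale miR-182 and miR-96 ranked 1 and 2 of 283 miRNAs toward the temporal side and miR-183-5p ranked 10, but by p-value they ranked 49, 66 and 105. Their samples were widely spread: the SD of the log2 value over the temporal libraries was 1.01 for miR-182, 1.00 for miR-183-5p and 1.08 for miR-96, against a median of 0.22 over all 283 miRNAs, placing them 4, 5 and 3 from the top. The nasal SDs of 0.41, 0.37 and 0.46 stood against a median of 0.26. In mean level over all libraries, miR-182 ranked 60 with 482 TPM, miR-183-5p ranked 62 with 437 TPM, and miR-96 averaged 35.2 TPM. The neighbours in this order were of both kinds. miR-1296-5p, next above miR-96, was 48.7 ± 4.16 TPM temporal and 25.3 ± 4.62 TPM nasal and was not called (0.39, adjusted p = 0.274), and neither was miR-363-3p, next above miR-182 (-0.36, adjusted p = 0.124). miR-16-2-3p, next below miR-183-5p, was lower in temporal retina by 0.81 (difference -0.81, adjusted p = 0.0202). miR-1180-3p, which stands between miR-182 and miR-183-5p, had 403 ± 81.0 TPM temporal and 478 ± 83.5 TPM nasal and was lower in temporal retina by 0.80 (adjusted p = 0.00876), and miR-342-5p, next below miR-96, had 18.7 ± 3.21 TPM temporal and 50.7 ± 12.2 TPM nasal (SD, n = 3 each; limma adjusted p = 0.00199). Without rescaling, 3 of the 283 miRNAs were called lower in temporal retina, in place of 41.

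**Figure D2:**
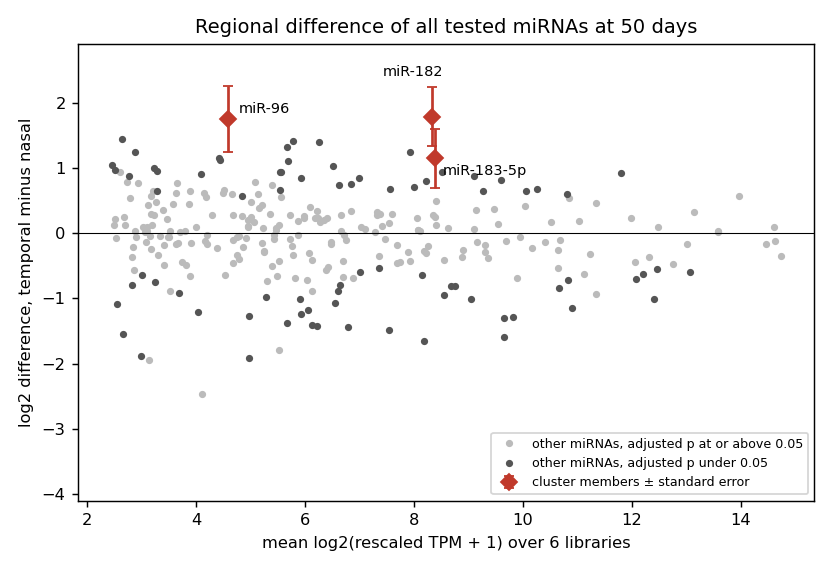
Mean log2 of the rescaled TPM plus 1 over the 6 libraries (horizontal axis) against the log2 difference, temporal minus nasal (vertical axis), for 283 miRNAs, with the cluster as red diamonds and bars of 1 standard error. miR-182 (1.79) and miR-96 (1.74) lie above every other miRNA and miR-183-5p (1.15) lies lower, among other miRNAs of the temporal side.

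Within a library, the members kept to narrow ratios, and those to miR-183-5p did not overlap between regions. None of these differences of ratio passed the threshold in the tests below. Regions that did not overlap were also found in 43.5% of all 39903 pairs of miRNAs. miR-182 exceeded miR-183-5p in each temporal library, by 1.22, 1.19 and 1.19 times in replicates 1, 2 and 3, and fell short of it in each nasal library, at 0.744, 0.789 and 0.771 times. The means were 1.20 ± 0.0190 temporal and 0.768 ± 0.0227 nasal (SD, n = 3 each), so that the ratio held steady among temporal samples whose miR-182 level varied 3.19-fold and among nasal samples whose level varied 2.82-fold. Of the summed TPM of the cluster, miR-182 made up 52.5 ± 0.380% in temporal and 42.2 ± 0.716% in nasal libraries, miR-183-5p 43.7 ± 0.413% in temporal and 54.9 ± 0.753% in nasal libraries, and miR-96 3.75 ± 0.273% in temporal and 2.96 ± 0.392% in nasal libraries (SD, n = 3 each). The low temporal replicate 2 had the composition of the other temporal samples, with 52.4% miR-182, and the high nasal replicate 2 that of the other nasal samples, with 42.7%.

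miR-96 stood to miR-183-5p as 0.0876, 0.0784 and 0.0913 to 1 in the temporal replicates, against 0.0560, 0.0602 and 0.0458 to 1 in the nasal replicates. These regions did not overlap either, also when each value was moved by the most that rounding allows (lowest temporal ratio 0.0767, highest nasal ratio 0.0618). miR-96 and miR-182, which share most of their seed, kept nearly the same ratio on both sides, at 0.0714 ± 0.00536 temporal and 0.0703 ± 0.00953 nasal (SD, n = 3 each), with overlapping samples. Turned round, miR-182 was on average 14.1 times miR-96 in temporal and 14.4 times in nasal libraries.

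**Figure D3:**
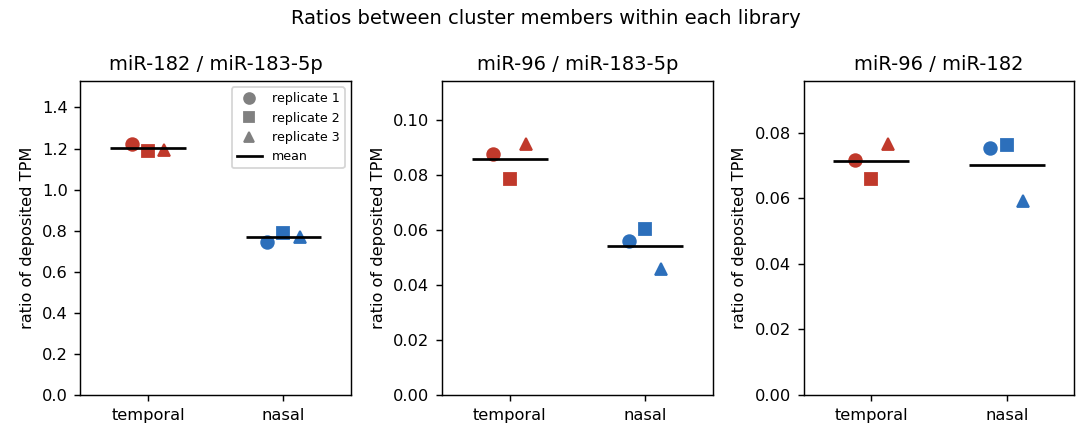
Ratios of deposited TPM between cluster members within each library (vertical axes from 0), temporal left and nasal right, with a symbol for each replicate number and a bar at the mean. miR-182 over miR-183-5p is near 1.20 in temporal and 0.768 in nasal libraries, and miR-96 over miR-182 is near 0.07 on both sides.

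Whether these ratios differed beyond the spread was tested for 3 pairs. The log2 ratio of miR-182 to miR-183-5p was 0.64 higher in temporal than in nasal libraries and that of miR-96 to miR-183-5p 0.60 higher, while that of miR-96 to miR-182 was 0.04 lower (difference -0.04). An exact two-sided permutation test of the 6 libraries gave p = 0.10 for each of the first 2 pairs, the smallest value that 3 against 3 samples allow, and p = 0.80 for the other, or 0.15, 0.15 and 0.80 when adjusted over the pairs. A limma fit of the difference between every miRNA and the second member gave adjusted p = 0.471, 0.537 and 0.956, with a standard error of 0.71 for the first pair, a spread shared over all miRNAs and much above the pair's own SD of 0.03. A fit over all 39903 pairs of miRNAs, chosen after that was seen, gave 95% intervals of 0.13 to 1.15, 0.06 to 1.14 and -0.58 to 0.50, with adjusted p = 0.0681, 0.0957 and 0.903, so no pair passed the threshold. In that fit 24.1% of pairs were called, and 43.5% of pairs had regions that did not overlap, so separate ratios between regions were common. The steadiness within a region was not: the pooled SD of the miR-182 to miR-183-5p log2 ratio, 0.03, was the 9th smallest of the 39903 pairs (median 0.38) and ranked 2 of the 6903 pairs in which both miRNAs averaged at least 100 TPM.

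The fold between regions also depended on which samples were set side by side. By replicate number, miR-182 was 9.61-, 1.39- and 9.84-fold higher in temporal replicates 1, 2 and 3 in deposited TPM, and miR-183-5p 5.85-, 0.922- and 6.37-fold. The labels also give each sample a code, whose meaning is not stated, and consecutive codes join temporal replicate 1 with nasal replicate 3, temporal 2 with nasal 1 and temporal 3 with nasal 2. Within these pairs the folds were 7.58, 3.91 and 4.43 for miR-182, 4.78, 2.45 and 2.94 for miR-183-5p and 9.14, 3.43 and 4.45 for miR-96, all above 1. With the codes as a block, the adjusted p was 0.0230 for miR-182, 0.0390 for miR-96 and 0.0537 for miR-183-5p in limma.

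Other miRNAs followed the pattern of the cluster over the 6 libraries, at smaller size. The likeness was Pearson's correlation of the log2 level with the mean of the 3 members, each centred on its own mean, given as a description over 6 libraries that share the difference between regions. miR-1298-5p, at 13, 8 and 12 TPM in temporal against 3, 7 and 3 TPM in nasal replicates, had the highest value of 280 miRNAs (r = 0.97). miR-148b-3p (r = 0.93), miR-185-3p (r = 0.91), miR-30a-5p (r = 0.91) and miR-101-3p (r = 0.89) came next. Of these 5, miR-30a-5p was called, with 2684 ± 209 TPM temporal and 1238 ± 400 TPM nasal (SD, n = 3 each; limma difference 0.61, adjusted p = 0.0302), and the others had adjusted p between 0.0731 and 0.292. The members themselves correlated at 0.98 (miR-182 with miR-183-5p), 0.98 (miR-96 with miR-183-5p) and 0.99 (miR-182 with miR-96).

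On the rescaled values, the opposite pattern was that of miR-204-5p, a miRNA of the pigment epithelium, lens and neural retina (r = -0.96). It was followed by miR-99a-5p with r = -0.95. miR-204-5p stood at 6116, 9744 and 6091 TPM in temporal, against 5456, 8829 and 6345 TPM in nasal replicates. Its difference of -0.47 was not called (limma adjusted p = 0.0731), and without rescaling it was 0.08 (limma adjusted p = 0.846). The deposited means were higher in temporal retina, at 7317 against 6877 TPM for miR-204-5p and 4600 against 4156 TPM for miR-99a-5p. In deposited TPM miR-204-5p was highest in replicate 2 of each region, and in nasal retina the cluster was highest there too. Among temporal samples miR-204-5p was highest where the cluster was lowest, also after rescaling.

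**Figure D4:**
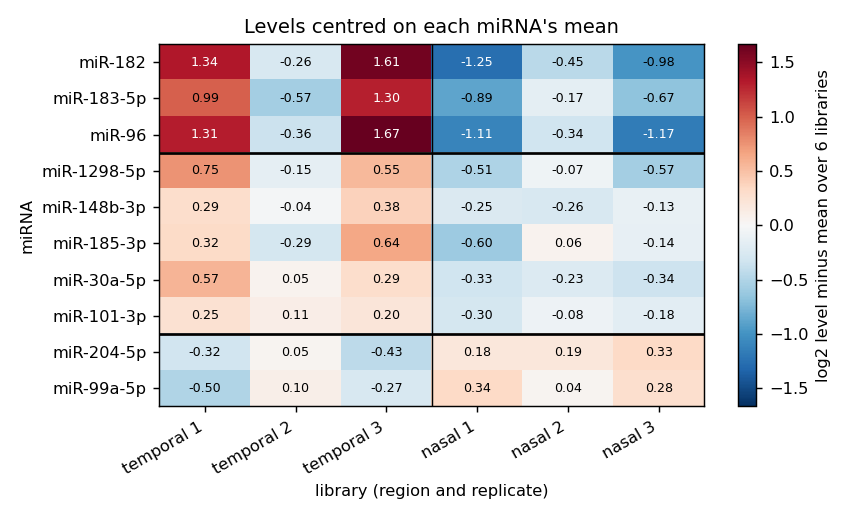
Log2 of the rescaled TPM plus 1 minus each miRNA's mean over the 6 libraries (colour and printed value), for the 3 cluster members (top), the 5 miRNAs most like them (middle) and the 2 least like them (bottom), temporal libraries left of nasal ones. miR-182 runs from 1.61 in temporal replicate 3 to -1.25 in nasal replicate 1, a wider span than that of any of the 7 other miRNAs shown.

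The cluster was next set against fixed lists of miRNAs of the retina and of tissues that border it. miR-204 and its relative miR-211 are raised by light in the mouse retina, as the cluster is, but neither was called higher in temporal retina: of 3 arms tested, 0 rose and 1 fell, miR-204-3p by 1.38 on the log2 scale (adjusted p = 0.00711), with a list median of -0.68 against 0.01 over all 283 miRNAs. Over all miRNAs 13.4% were called higher and 14.5% lower, so 1 of 3 is no more than a description, and without rescaling 0 of the 3 were called. Of 7 miRNAs of retinal neurons, among them the neuronal miR-124a and miR-9, 1 was higher, miR-9-3p (0.75, adjusted p = 0.0302), 0 were lower, and the median was 0.29. The call of miR-9-3p was lost without any 1 library other than nasal replicate 1 (adjusted p between 0.0629 and 0.107) and with the sample codes as a block (adjusted p = 0.0511). The same 13.4% and 14.5% over all miRNAs stand beside this list. Without rescaling 3 of the 7 were called higher, with a median of 0.84, where 77 of all 283 miRNAs were called higher. Of 18 miRNAs tied to late progenitor competence in the mouse (let-7, miR-125 and miR-9), 1 was higher and 7 lower, let-7c-5p among them (-1.29, adjusted p = 0.00199), with a median of -0.39, against the same 13.4% and 14.5% over all miRNAs. The lower calls rested on the rescaling: without it 2 of the 18 were higher, 0 were lower and the median was 0.16.

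Among miRNAs of blood and vessels, 0 of 3 were higher and 1 was lower, miR-486-5p of red cells, which fell by 1.00 on the log2 scale (adjusted p = 0.0248), with a median of -1.78. Over all miRNAs 13.4% were called higher and 14.5% lower, so 1 of 3 is again no more than a description. The endothelial miR-126 had 27, 42 and 21 TPM in temporal and 25, 551 and 24 TPM in nasal replicates, and miR-143-3p of vessel smooth muscle 3, 5 and 5 TPM in temporal and 2, 288 and 3 TPM in nasal replicates. Both were thus high in nasal replicate 2 alone, the nasal library with the most of the cluster. Without it miR-143-3p fell under the filter and the median of the other 2 was -0.69. The call of miR-486-5p was lost without temporal replicate 1, temporal replicate 2 or nasal replicate 3 (adjusted p = 0.0888, 0.0725 and 0.0871). Without rescaling that call was also lost (difference -0.46, limma adjusted p = 0.343), and 0 of the 3 were called. Of 4 miRNAs of lens and pigment epithelium, a list that holds the arms of miR-204 and miR-211 again, 0 were higher and 1 was lower, and the median was -1.03. The same 13.4% and 14.5% stand beside this count, and without rescaling 0 of the 4 were called. With the replicate block 3 of these 4 were lower, and 2 of the 3 arms of miR-204 and miR-211. miR-184 of lens and cornea had 2, 26 and 7 TPM in temporal and 3, 488 and 20 TPM in nasal replicates, highest again in nasal replicate 2. Its difference of -2.47 was not called (adjusted p = 0.232), passed with the replicate block (adjusted p = 0.0315) and without nasal replicate 1 (-3.97, adjusted p = 0.0177), and was -0.76 without nasal replicate 2. Nasal replicate 2 also held the highest nasal value of miR-182, so leaving it out could only widen that difference, which became 2.00 (limma adjusted p = 0.0113). The part of tissue at the edge of the punches in the values of the cluster was not tested.

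The difference of miR-182 was also compared directly with those of the other 282 miRNAs in the fit of within-library differences, in which all tests share the noise of miR-182. The fit pools this shared noise over all miRNAs as if it were independent, though it rests on 6 libraries. Its p-values are thus too small, and the counts and p-values from it are no more than a description. The difference of miR-182 exceeded that of 169 of the 282 past the threshold (59.9%), and no other difference lay further toward the temporal side. The count was 5 with the replicate number as a block and 244 with the sample codes as a block. It moved with each library left out: it was 16, 274 and 39 without temporal replicate 1, 2 and 3, and 30, 109 and 12 without nasal replicate 1, 2 and 3. With the replicate block the 5 were miR-184, miR-143-3p, miR-126, miR-342-5p and miR-7205-5p. For miR-184 and miR-126 this difference was smaller without nasal replicate 2, at -2.76 in place of -4.26 and at -2.53 in place of -3.57. Both still passed the threshold there, in the fit without a block (limma adjusted p = 0.0302 and 0.0384). Without that library miR-143-3p was too low to be tested. The difference of miR-204-5p was 2.26 below that of miR-182 (difference -2.26 ± 0.69, standard error, adjusted p = 0.00655), but the adjusted p was 0.122 with the replicate block. It was also between 0.0922 and 0.116 without temporal replicate 1, temporal replicate 3, nasal replicate 1 or nasal replicate 3. miR-9-3p and miR-124a-3p did not differ from miR-182 past the threshold (differences -1.04 and -1.50, limma adjusted p = 0.191 and 0.0643). Without temporal replicate 2 both passed (adjusted p = 0.00086 and 5.9e-05), and with the sample codes as a block miR-124a-3p did (adjusted p = 0.00709).

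The same samples were read for mRNA, deposited at 50 days as the authors' mean per region on the CPM scale (reads of a gene relative to the library total), so that no spread between samples can be given. The hairpins themselves were almost unseen there: the row of mir-183 had an authors' mean of 0.0743 CPM in temporal retina and was listed at 0 in nasal retina, and the rows of mir-182 and mir-96 were listed at 0 on both sides. At 90 days all 3 had 0 reads in the temporal and in the nasal library. At 150 days mir-182 had 3 reads in the temporal and 1 read in the nasal library, no more than the 3 reads that a count of 0 allows. The authors' mean of UBE2H, a ubiquitin-conjugating enzyme encoded beside the cluster, was 40.9 CPM in temporal and 38.9 CPM in nasal retina, 1.05-fold apart. On the unlike scale of the miRNA libraries, miR-182 was 5.11-fold apart in deposited TPM and 3.88-fold after rescaling.

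mRNAs of cones and photoreceptor precursors, the cells best known for this cluster, were also higher on the temporal side. Of 20 listed markers, 17 reached 1 CPM in at least 1 region. All 17 had the higher authors' mean on the temporal side, as did 47.3% of all 14254 genes at that level. GNGT2 reached 1 CPM in the temporal mean alone (1.19 CPM, against 0.466 CPM nasal). Of the markers under 1 CPM, OPN1SW was lower on the temporal side (0.229 against 0.515 CPM) and ARR3 higher (0.429 against 0.282 CPM). The median log2 ratio of CPM + 1 over the 17 was 0.44, against -0.02 over all genes. The 20 listed markers summed to 968 CPM temporal and 702 CPM nasal. OTX2, the homeobox factor that starts the photoreceptor fate, had 126 CPM temporal and 74.3 CPM nasal, and its partner CRX had 26.9 CPM temporal and 19.0 CPM nasal. GNAT2, the cone transducin, had 16.6 CPM temporal and 6.29 CPM nasal and was with RP1 and CNGB3 one of 3 markers that reached 5 CPM and were 2-fold higher on the temporal side, where 0.197% of the genes of at least 5 CPM were 2-fold higher and 0.861% 2-fold lower. The folds of the 17 mRNAs ran from 1.11 for the thyroid hormone receptor THRB to 3.84 for CNGB3. In the miRNA libraries, on another scale, the rescaled folds were 2.49 for miR-183-5p, 3.88 for miR-182 and 4.01 for miR-96. Of 9 rod markers, only NRL reached 1 CPM (1.69 CPM temporal and 1.23 CPM nasal), and the long-wave cone opsin OPN1LW was listed at 0 on both sides. In bulk tissue, more photoreceptors and more of a miRNA in each of them cannot be told apart, and the part of photoreceptor number in the cluster's values was not tested.

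**Figure D5:**
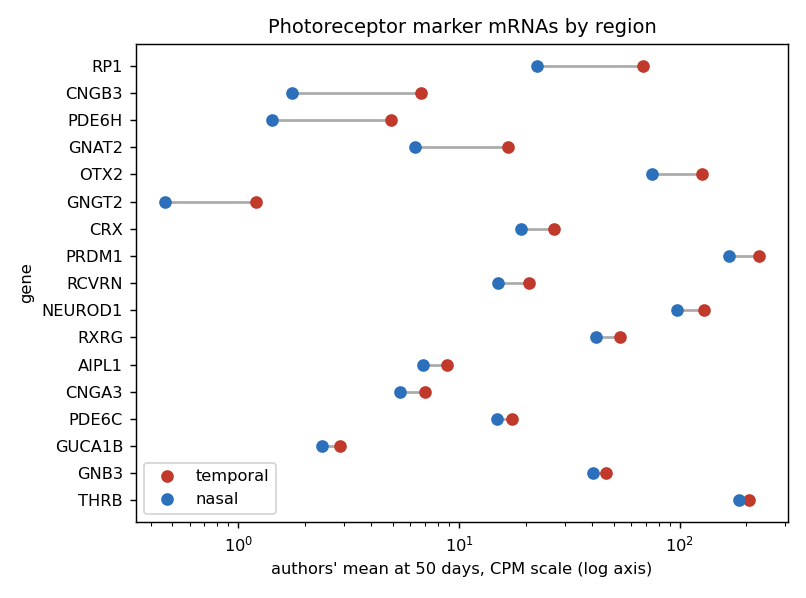
Authors' mean at 50 days on the CPM scale (horizontal log axis) of the 17 photoreceptor marker mRNAs of at least 1 CPM in either region, temporal in red and nasal in blue, ordered by log2 ratio with the highest on top. Each temporal point lies to the right of its nasal point, from RP1 (67.8 against 22.4 CPM) at the top to THRB (206 against 186 CPM) at the bottom.

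Markers of other cells differed in both directions. Bipolar genes had a median log2 ratio of 1.00, a larger ratio than that of the photoreceptor list, and summed to 59.0 CPM temporal and 27.9 CPM nasal. Of 8 markers, 4 were 2-fold higher on the temporal side, as were 0.197% of the genes of at least 5 CPM. These 4 reached 5 CPM in the temporal mean alone. TRPM1 (1.91 CPM temporal and 3.50 CPM nasal) and CABP5 (1.36 and 1.75 CPM) were lower on the temporal side, and GRM6 was near equal (4.89 and 4.83 CPM). Progenitor genes had a median of -0.21 over 6 markers, with HES5 at 4.79 CPM temporal and 11.6 CPM nasal, and ganglion cell genes -0.20 over 8 markers. Markers of pigment epithelium had -0.04 over 7 markers, though the pigment enzyme TYRP1 stood at 0.172 CPM temporal and 2.70 CPM nasal. Endothelial markers had -0.55 over the 5 that reached 1 CPM, with CDH5 listed at 0 in temporal and at 1.24 CPM in nasal retina. The receptor KDR, which retinal progenitors of the mouse also carry, went the other way at 854 CPM temporal and 582 CPM nasal and made the list's sum 859 CPM temporal and 592 CPM nasal. Of 5 blood markers only fetal hemoglobin HBG2 reached 1 CPM, at 0.320 CPM temporal and 5.92 CPM nasal. The part of these cell types in the values of the cluster was not tested.

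Genes published as targets of the cluster in other species or in cell lines lay on both sides of equality. Of 18 listed, 17 were in the table, 0 were 2-fold different in either direction, 6 (35.3%) were higher and 11 lower in the temporal mean, and the median log2 ratio was -0.04 against -0.02 over all genes. Of all genes 47.3% were higher, 0.197% were 2-fold higher and 0.861% 2-fold lower, so the absence of 2-fold targets says nothing particular to them. The lowest ratio was that of SLC6A6, a taurine transporter and a target in mouse photoreceptors, with 19.0 CPM temporal and 24.9 CPM nasal (-0.37). ADCY6, an adenylyl cyclase and a target in the mouse retina, followed with 49.0 CPM temporal and 62.1 CPM nasal (-0.34). SLC1A1, a glutamate transporter of mouse retinal neurons targeted by the cluster, had 27.8 CPM temporal and 34.0 CPM nasal (-0.28), and the pigment cell factor MITF had 4.68 CPM temporal and 5.76 CPM nasal (-0.25). The highest ratio was that of the forkhead factor FOXO1, with 21.7 CPM temporal and 17.4 CPM nasal (0.31), while CLOCK, a circadian factor, had 141 CPM temporal and 124 CPM nasal (0.19). CFL1, the actin-severing cofilin targeted by miR-182 in frog retinal axons, had 322 CPM temporal and 328 CPM nasal. The regions' mRNA means carry no replicate error, so none of these differences was tested.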

How the data were processed

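Small RNA libraries were made with a NEBNext kit and sequenced on a NextSeq 500. Reads were mapped by the authors against miRBase release 20. Their deposited table gives TPM as whole numbers (a rounded score), along with the mean TPM per region and their own log2 fold changes, p-value and adjusted p-value per miRNA, which were not used. For the miRNA aligner the sources used here give no name. For mRNA the authors deposited at 50 days a mean signal of each region, on a CPM scale, and at 90 and 150 days the CPM of single libraries, from which whole reads were recovered in 100% of values within 0.01 reads; with 1 library per region no count test was run.

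Of 339 miRNAs, the 283 of at least 5 mean TPM were rescaled by median ratios and fitted with limma 3.58.1 (eBayes with trend, R 4.3.3) on log2(value + 1), with Benjamini-Hochberg adjustment and a threshold of 0.05. The script was tested on simulated data. Deviations of temporal and nasal samples of equal number correlated at 0.50, 0.16 and 0.12, each above 0.1. The number was taken as a possible pairing from the data alone. The consecutive codes gave -0.15, -0.19 and 0.22. As this 0.22 exceeds the 0.16 and 0.12 of equal numbers, the correlations do not decide the pairing. mRNA lists used log2(CPM + 1) for genes of at least 1 CPM, and a gene counted as 2-fold only from 5 CPM. Among 28633 genes, 7120 lacked a symbol in the file and 700 gained one from the gene name table. Named miRNAs were the members, the 5 most and 2 least like them, their neighbours in level and the extremes of the lists. The members, lists and tests were chosen with earlier results of these data known. No pair of libraries held identical values. Sequences were not used here. Python 3.11.15, NumPy 2.4.6, pandas 2.3.3 and Matplotlib 3.10.9 were used.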

Additional observations from a re-analysis of the deposited data

How the results depend on the processing

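Each member was refitted with other scalings, pseudocounts, low-value filters, pairings and sets of libraries. The cause of a changed call was not tested unless fewer samples were fitted. Leaving out each library in turn gave differences of 1.43 to 2.36 for miR-182, 1.35 to 2.35 for miR-96 and 0.79 to 1.71 for miR-183-5p, all higher in temporal retina. With the replicate block, the difference of miR-96 stayed at 1.74 and missed the threshold. Without rescaling, miR-183-5p was at 1.70 and passed it. Besides these and the libraries named above whose removal ended or made a call, no alternative changed the call of a member.

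The log2 difference of miR-182 minus miR-183-5p ranged over 0.62 to 0.66 when a library was left out, that of miR-96 minus miR-183-5p over 0.50 to 0.66 and that of miR-96 minus miR-182 over -0.15 to 0.02, where it was 0.0226 without nasal replicate 1 and 0.00029 without nasal replicate 2. None of the pairs passed the threshold in any fit run.

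Of 283 miRNAs, 79 were called, 38 higher and 41 lower in temporal retina. This became 52 with the sample codes as a block and 34 to 111 when a library was left out (37 and 51 without temporal replicates 1 and 3, 52 and 34 without nasal replicates 2 and 3), and without rescaling the 80 calls split into 77 higher and 3 lower. The count of miRNAs whose difference was below that of miR-182, 169, is a description only. It became 5 with the replicate block and 12 to 274 when a library was left out. Of the lists of miRNAs, the median of the late progenitor list turned from -0.39 to 0.16 without rescaling. The medians of the mRNA lists kept their sign, but with a pseudocount of 5 that of blood became -1.04, of endothelium -0.25 and of rods 0.10, and with columns of equal sum that of pigment epithelium became -0.08 and of targets -0.09. The alternatives for the miRNA lists were chosen after seeing the data. Rounding limits miR-96, at 7 TPM in a pair of nasal libraries, more than the other members, and with 3 samples a region an exact test of a single value cannot go below p = 0.10.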
